A study of Mus musculus with 24 samples.

Results

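The pi, theta, kappa, omega, zeta and microsomal glutathione transferases were followed in mouse liver by their gene names: Gstp1, Gstp2, Gstt1, Gstt2, Gstt3, Gstk1, Gsto1, Gstz1, Mgst1 and Mgst3. Of these 10 genes, 9 had a row among the 15160 genes counted, and these 9 all passed the filter on low counts that kept 13336 genes. Gstp2 had no row of its own. The libraries came from 24 male mice of 2 genotypes, WT and NRF2 KO, each fed a control diet (Con) or a methionine-restricted diet (MR), with 6 mice per genotype and diet. WT mice were NRF2fl/fl, with both copies of Nfe2l2 floxed and no Cre, and NRF2 KO mice, NRF2fl/(alb), were floxed littermates that also carried 1 copy of Alb-cre. The albumin promoter drives this Cre in hepatocytes, and which other cells of the liver keep the gene was not tested. The Con diet held 0.86% methionine and the MR diet 0.17%, both without cysteine. Each is given as fed for 8 weeks from 8 weeks of age, with an age of 5 months on the label. For mice fed this long, the study describes calorimetry and a return to home cages between those 8 weeks and tissue harvest. The 22 mice that the study kept enter the comparisons, with n = 5 in both WT groups and n = 6 in both NRF2 KO groups, and mice WT_CON_7604 and WT_MR_7612 are given separately.

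Glutathione transferases join the thiol of glutathione to reactive compounds, which are then exported and broken down. The cytosolic classes, named by Greek letters, differ in their substrates, the kappa enzyme sits in mitochondria and peroxisomes, and the microsomal enzymes are an unrelated family of membrane proteins. NRF2, the product of Nfe2l2, is a transcription factor that binds antioxidant response elements and is best known for driving detoxification genes, some transferases among them. Methionine is a precursor of the cysteine from which glutathione is made.

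Levels are given as CPM, counts per gene scaled to a common library total with TMM factors. The libraries were QuantSeq 3′ libraries, in which a read comes from near the end of a transcript, and 6197291 to 22068338 reads were counted per mouse in the 22 mice compared, with a median of 15019792. WT_CON_7604 and WT_MR_7612 had 15295968 and 22414684. Hepatocyte markers were high in every library, by the summed level of 9 genes that include albumin. In WT this sum ran from 87874 to 118904 CPM on Con and from 77383 to 96100 on MR. In NRF2 KO it ran from 112871 to 133283 CPM on Con and from 96844 to 120786 on MR. On MR the genotypes did not overlap. In bulk liver, fewer cells of a type and less RNA per cell cannot be told apart.

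Reads on Nfe2l2 itself were more numerous in NRF2 KO than in WT mice. On Con they averaged 158 ± 93.0 CPM (SD) in WT and 281 ± 43.9 in NRF2 KO (p = 0.024 by an exact permutation test, two-sided). On MR they averaged 100.1 ± 4.94 CPM in WT and 226 ± 15.8 in NRF2 KO (p = 0.0022, the smallest that the exact test can give). Cre acts on exon 5, the last of the 5 annotated exons (chr2:75675513-75677184), which is also where 3′ reads fall. The bounds of the excised portion within that exon are not given in the sources used here, so the reads cannot be placed inside or outside it, and they were not fewer in the mice labelled NRF2 KO. The library labelled WT_CON_7607 stood at 324 CPM, within the NRF2 KO range, while the other 9 WT mice lay between 94.0 and 125. Its label is kept below, and results that rest on WT Con are also given without it where the call changes, with the main changes in size.

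**Figure D1:**
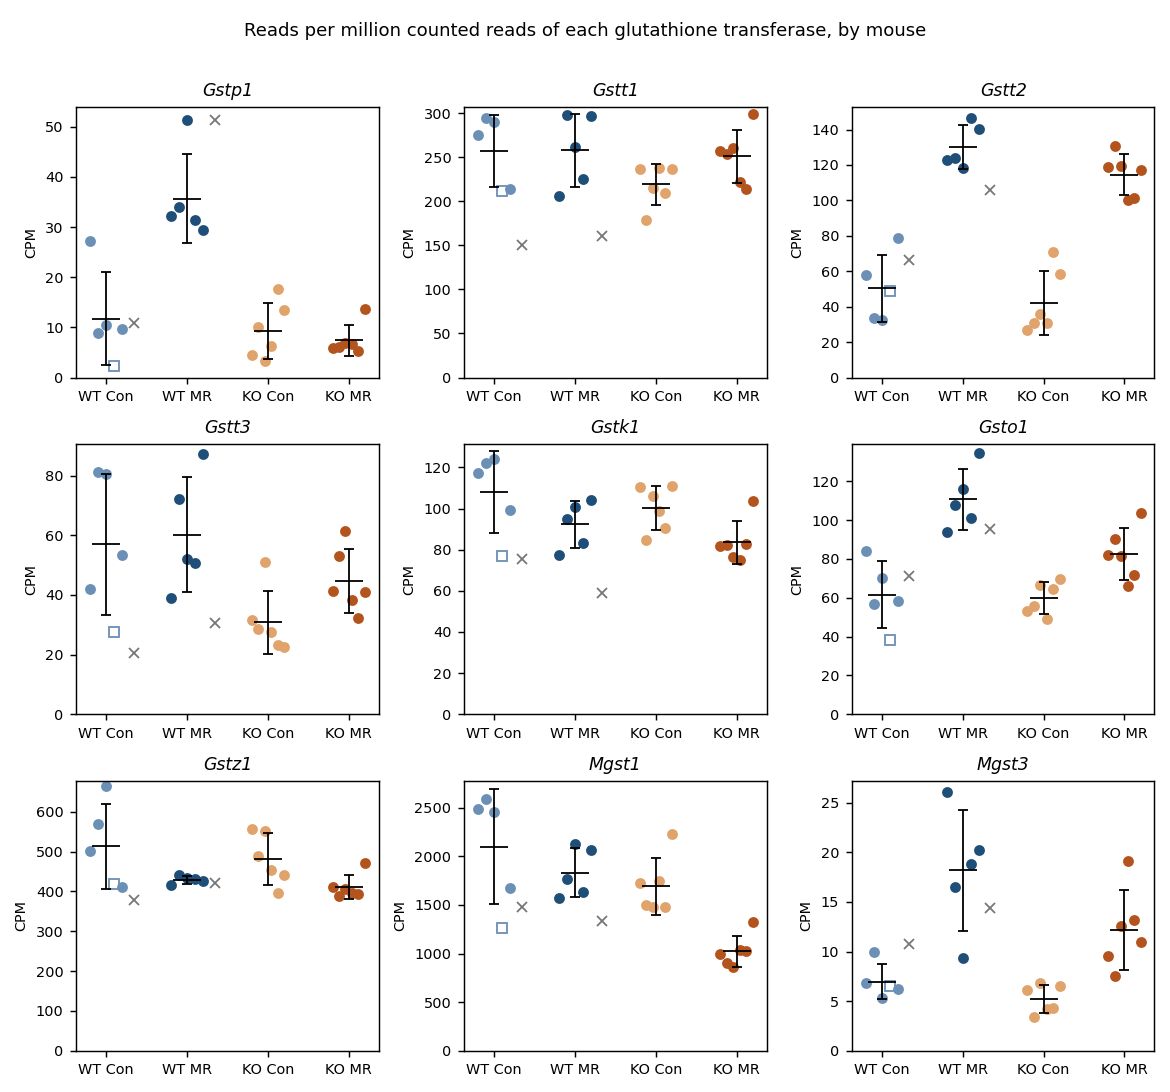
Level of each of the 9 measured genes in CPM (vertical axes, linear, from 0) by group (horizontal axes). Circles are the 22 mice of the comparisons, the open square is the library labelled WT_CON_7607, grey crosses are WT_CON_7604 and WT_MR_7612, and bars show the mean and SD of the 22 mice. The crosses were scaled in a set of all 24 mice. Gstt2 is higher on MR in both genotypes with no overlap, and WT MR is the only group in which Gstp1 reached 29.4 CPM or more in every mouse.

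Dietary MR raised 4 of the 9 genes in WT mice, Gstp1, Gstt2, Gsto1 and Mgst3, by 1.80-fold to 3.07-fold. In NRF2 KO mice it raised Gstt2, Gsto1 and Mgst3 and lowered Mgst1. On MR, Gstp1 and Mgst1 were lower in NRF2 KO than in WT, and no gene of the set passed the test between genotypes on Con. A gene was called when edgeR's quasi-likelihood test gave an adjusted p under 0.05 by the Benjamini-Hochberg method over all 13336 genes, and the replicates are mice. For MR in WT, 4 of the 9 genes were called against 13.8% of all genes, all of them higher (6.91% of all genes), and 3 had no overlap between the groups against 9.32%. In NRF2 KO, MR changed 4 against 12.6%, with 3 higher (6.23%) and 1 lower (6.34%), and 3 did not overlap against 5.45%. Between genotypes on Con 0 were called against 2.07%, with 1 gene (Gstt3) at an unadjusted p under 0.05 against 14.4%, and DESeq2 also called 0. Between genotypes on MR 2 were called against 1.93%, the same 2 did not overlap against 4.6%, and DESeq2 called 2 as well. Over the 9 genes the median log2 fold change with MR was 0.08 in WT and 0.20 in NRF2 KO, that between genotypes was -0.26 on Con and -0.42 on MR, and the medians over all genes lay between -0.01 and 0.00. All 9 fitted lower in NRF2 KO on each diet, where 50.8% of all genes did so on Con and 48.9% on MR, and the direction of some uncalled genes turned in other fits.

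**Figure D2:**
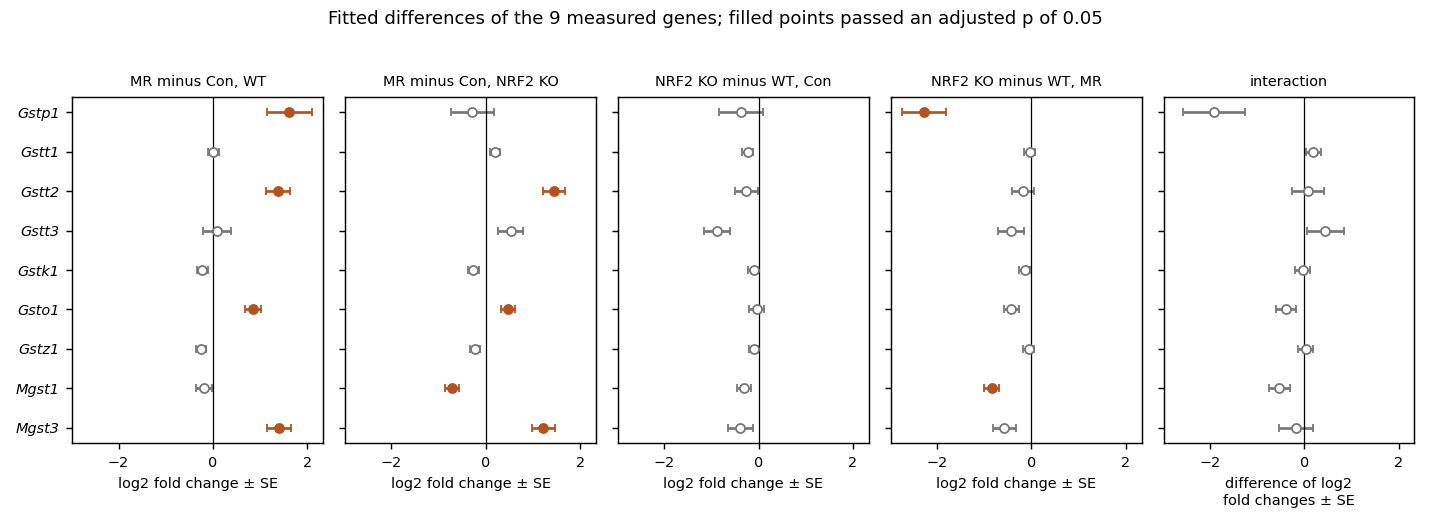
Fitted log2 fold change (horizontal axes, points with bars of 1 standard error) of the 9 genes in the 4 comparisons, and the interaction, the difference between the diet effect in NRF2 KO and in WT. Filled points passed an adjusted p of 0.05 in edgeR's quasi-likelihood test: 4 for the diet in each genotype, none between genotypes on Con, 2 between genotypes on MR and none for the interaction.

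Gstp1 encodes the pi-class enzyme, a cytosolic transferase that conjugates many electrophiles and also binds stress kinases. It lies at chr19:4035407-4037985 on the minus strand (GRCm38), beside Gstp2 at chr19:4040285-4046023. WT_CON_7602, WT_CON_7603, WT_CON_7605, WT_CON_7607 and WT_CON_7608 had 27.3, 8.82, 10.4, 2.31 and 9.62 CPM, and WT_MR_7609, WT_MR_7611, WT_MR_7613, WT_MR_7615 and WT_MR_7616 had 32.1, 34.1, 51.4, 31.5 and 29.4. Values of WT mice below follow the same order. Every WT MR mouse lay above every WT Con mouse, and WT_CON_7602 was the WT Con mouse nearest to them. The NRF2 KO Con mice ran from 3.34 over a median of 8.21 to 17.7 CPM, and the NRF2 KO MR mice from 5.23 over 6.41 to 13.6. The NRF2 KO MR mice therefore all lay below the WT MR mice, and the NRF2 KO groups overlapped each other.

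By edgeR's quasi-likelihood test, Gstp1 rose with MR in WT by a log2 fold change of 1.62 (SE 0.47, adjusted p = 0.029) and was lower in NRF2 KO than in WT on MR by a log2 fold change of -2.28 (SE 0.46, adjusted p = 0.0095). Both comparisons rest on the same WT MR mice. The difference with MR in NRF2 KO was -0.29 (SE 0.46, 95% interval -1.25 to 0.68), and that between genotypes on Con was -0.37 (SE 0.47, interval -1.36 to 0.61). The diet effect in NRF2 KO minus that in WT was -1.91 (SE 0.66), with an unadjusted p of 0.0093 and an adjusted p of 0.48, so it did not pass the test. Gstp1 varied more between mice of a group than any other gene of the set, with an SD of 0.82 on the log2 scale, where the median of all genes was 0.23. The rise in WT lost its call in a fit of the 2 WT groups alone (1.61, adjusted p = 0.076). It also lost it without WT_CON_7603 (1.53, adjusted p = 0.067), WT_CON_7605 (1.58, 0.059) or WT_CON_7608 (1.56, 0.059) and without WT_MR_7613 (1.45, 0.068). Without the library labelled WT_CON_7607 it was 1.37 (adjusted p = 0.0497).

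The reads counted as Gstp1 cannot be assigned to that gene alone. The last 300 bases of the annotated Gstp1 and Gstp2 transcripts are identical, so all 251 windows of 50 bases and all 226 windows of 75 bases occur in both. Over the whole transcripts 755 of 785 aligned bases, 96.2%, are the same. A processed copy on another chromosome, Gstp-ps (chr1:192073820-192074450, minus strand, within Traf5 on the same strand), holds 185 of the 251 and 160 of the 226 windows exactly. How reads that match several places were counted is not given in the sources used here, so the level called Gstp1 may hold reads of each.

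Gstp-ps had a row of its own, which may likewise hold reads of Gstp1 or Gstp2, given the windows they share. In WT it averaged 2.43 ± 1.32 CPM (SD) on Con and 7.40 ± 0.915 on MR, and in NRF2 KO 1.72 ± 0.817 on Con and 1.10 ± 0.260 on MR. The fitted difference was 1.59 with MR in WT (edgeR, adjusted p = 0.0017) and -2.76 between genotypes on MR (adjusted p = 1.0e-05), and it was not called in the other comparisons. With the reads of both summed into 1 gene, the values were 1.61 (adjusted p = 0.024) and -2.35 (adjusted p = 0.0052). Gstp3, the next gene of the cluster, shares none of these windows and averaged 9.35 and 9.15 CPM in WT on Con and MR and 8.58 and 11.6 CPM in NRF2 KO.

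The theta class is cytosolic and acts on small halogenated compounds and peroxides. Its 3 measured genes lie within 1 cluster on chromosome 10, all on the minus strand, and their transcripts share no window of 50 bases in their last 300 bases. Gstt2 (chr10:75831114-75837424) showed the diet effect most plainly. WT Con mice had 57.7, 33.8, 32.5, 48.8 and 78.7 CPM and WT MR mice 123, 124, 118, 146 and 140.5. NRF2 KO Con mice ran from 26.6 over a median of 33.4 to 70.7 CPM, and NRF2 KO MR mice from 100.2 over 118 to 131. The Con and MR mice did not overlap in either genotype, and the genotypes overlapped on both diets.

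Gstt2 rose with MR by a log2 fold change of 1.37 in WT (SE 0.25, edgeR adjusted p = 0.0014) and 1.45 in NRF2 KO (SE 0.23, adjusted p = 5.3e-04). The difference between those effects was 0.08 (95% interval -0.63 to 0.79). Between genotypes it was -0.26 on Con (interval -0.77 to 0.24) and -0.19 on MR (interval -0.68 to 0.31), and that on Con moved to -0.04 without WT_CON_7608 and to -0.47 without KO_CON_7622. Both calls with MR held in all alternatives tried.

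Gstt1 (chr10:75783813-75798584) encodes the enzyme best known for acting on methyl halides and dichloromethane. It had 275, 295, 289, 212 and 214 CPM in WT Con and 206, 298, 262, 226 and 297 in WT MR. The NRF2 KO Con mice ran from 179 over 226 to 238 CPM and the NRF2 KO MR mice from 214 over 256 to 299. All groups overlapped, and no comparison passed the test. The fitted difference with MR was 0.00 in WT (interval -0.25 to 0.26) and 0.20 in NRF2 KO (interval -0.03 to 0.43), and scaling by library size alone moved the latter to 0.35 (adjusted p = 0.0047).

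Gstt3 (chr10:75774115-75781414) shares its strand and position with Gm20441, an annotated read-through gene, so reads may belong to either. Its level was 42.0, 81.2, 80.4, 27.5 and 53.4 CPM in the WT Con mice and 39.0, 72.1, 52.0, 50.6 and 87.3 in the WT MR mice. The NRF2 KO Con mice ran from 22.5 over 28.2 to 51.0 CPM and the NRF2 KO MR mice from 32.3 over 41.2 to 61.4. WT_CON_7602 and WT_CON_7607 lay within the NRF2 KO Con range and the other 3 above it. The difference between genotypes on Con was -0.88 (SE 0.28, interval -1.47 to -0.29), with an unadjusted p of 0.0052 that did not pass after adjustment (edgeR, adjusted p = 0.12). Without the library labelled WT_CON_7607 it was -1.05 (adjusted p = 0.036), the only gene of the set that was then called on Con. With MR the differences were 0.08 in WT (interval -0.53 to 0.69) and 0.52 in NRF2 KO (interval -0.04 to 1.09).

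Gsto1 encodes the omega enzyme, which reduces dehydroascorbate and removes glutathione from proteins. It lies at chr19:47854970-47864790 on the plus strand, and Cfap43 overlaps it on the other strand. WT Con mice had 84.3, 56.9, 70.1, 38.1 and 58.4 CPM and WT MR mice 93.7, 108, 116, 101 and 134, with no overlap. NRF2 KO Con mice ran from 49.0 over 60.2 to 69.6 CPM and NRF2 KO MR mice from 65.8 over 81.7 to 104, and there 1 KO MR mouse, KO_MR_7629, lay within the Con range. Gsto1 rose with MR by a log2 fold change of 0.85 in WT (SE 0.16, edgeR adjusted p = 0.0012) and 0.46 in NRF2 KO (SE 0.15, adjusted p = 0.038). The effects differed by -0.38 (interval -0.83 to 0.07), which did not pass the test (adjusted p = 0.72).

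The rise of Gsto1 in NRF2 KO lay close to the threshold. It lost its call without KO_CON_7617 (0.44, adjusted p = 0.076), KO_CON_7618 (0.45, 0.076) or KO_CON_7621 (0.41, 0.084). It did so too without KO_MR_7625 (0.47, 0.061), KO_MR_7627 (0.44, 0.072), KO_MR_7628 (0.47, 0.060) or KO_MR_7632 (0.39, 0.081). Between genotypes Gsto1 differed by -0.04 on Con (interval -0.36 to 0.28) and by -0.42 on MR (SE 0.15, adjusted p = 0.16), and a fit of the 2 MR groups alone called the latter (-0.42, adjusted p = 0.049).

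**Figure D3:**
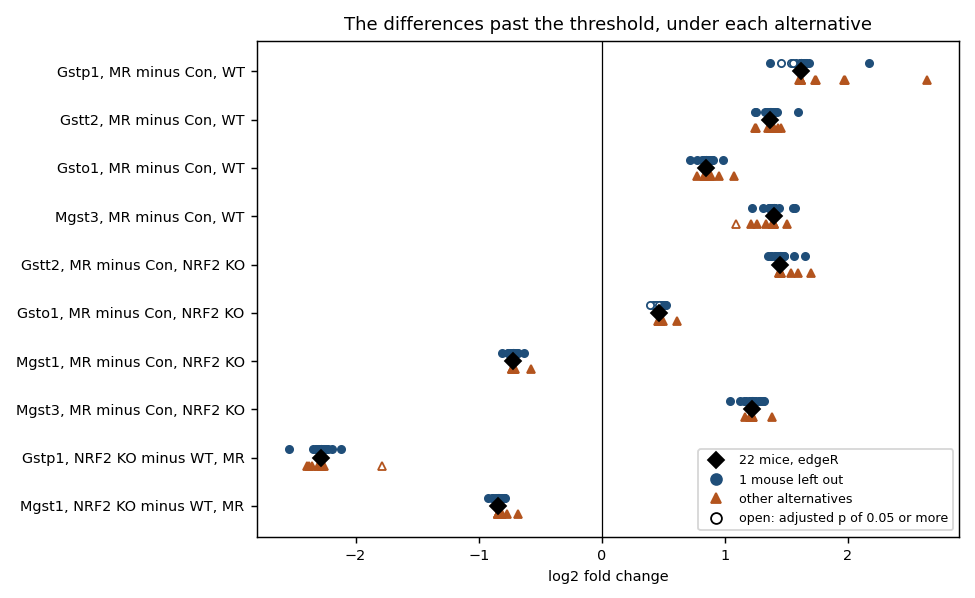
Log2 fold changes (horizontal axis) of the 10 differences that passed the test (rows), as reported (black diamonds), with each mouse left out in turn (blue circles) and under the other alternatives (orange triangles). Open symbols have an adjusted p of 0.05 or more; they occur for Gstp1, Gsto1 in NRF2 KO and Mgst3 in WT, and no symbol lies on the other side of 0.

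Gstz1 encodes maleylacetoacetate isomerase, an enzyme of tyrosine breakdown, at chr12:87147165-87164723 on the plus strand (Pomt2 and Gm6566 overlap it on the other strand). In WT Con the mice had 501, 569, 664, 418 and 412 CPM and WT MR mice 415, 442, 434, 431 and 426. The WT MR mice lay close together (429.7 ± 10.1 CPM, SD, n = 5), all of them below the 3 highest WT Con mice. NRF2 KO Con mice ran from 395 over 471 to 557 CPM and NRF2 KO MR mice from 388 over 402 to 470.5. The difference with MR was -0.26 in WT (SE 0.11, edgeR adjusted p = 0.13) and -0.23 in NRF2 KO (SE 0.10, adjusted p = 0.15), and neither passed the test. The genotypes differed by -0.09 on Con and -0.06 on MR.

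Gstk1, the kappa enzyme, lies at chr6:42245935-42250447 on the plus strand. WT Con mice had 117, 122, 124, 77.0 and 99.5 CPM and WT MR mice 77.4, 95.2, 101, 83.5 and 104. NRF2 KO Con mice ran from 84.7 over 102 to 111 CPM and NRF2 KO MR mice from 74.9 over 81.9 to 104, so the diets overlapped in both genotypes. The difference with MR was -0.23 in WT (SE 0.12, edgeR adjusted p = 0.21) and -0.26 in NRF2 KO (SE 0.11, adjusted p = 0.11). It passed in WT without the library labelled WT_CON_7607 (-0.32, adjusted p = 0.047) and in NRF2 KO without KO_MR_7632 (-0.33, adjusted p = 0.042). The genotypes differed by -0.11 on Con (interval -0.35 to 0.13) and -0.14 on MR (interval -0.38 to 0.10).

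Mgst1 encodes the microsomal enzyme, a membrane transferase and peroxidase of the endoplasmic reticulum and the outer mitochondrial membrane, at chr6:138140316-138156755 on the plus strand. The 5 WT Con mice had 2491, 2594, 2456, 1266 and 1678 CPM and WT MR mice 1567, 1762, 2130, 1635 and 2062. The NRF2 KO Con mice ran from 1476 over 1611 to 2226 CPM and the NRF2 KO MR mice from 857 over 1008 to 1321. Every NRF2 KO MR mouse lay below every NRF2 KO Con and every WT MR mouse, and the WT groups overlapped.

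Mgst1 fell with MR in NRF2 KO by 0.72 on the log2 scale (SE 0.15, edgeR adjusted p = 0.0029), and on MR it was lower in NRF2 KO than in WT by a log2 fold change of -0.84 (SE 0.16, adjusted p = 0.0030). These comparisons share the NRF2 KO MR mice, and both calls held in every alternative tried. In WT the difference with MR was -0.20 (SE 0.16, interval -0.54 to 0.15), with -0.33 without the library labelled WT_CON_7607 and -0.11 without WT_CON_7603, and between genotypes on Con it was -0.31 (SE 0.16, interval -0.64 to 0.02). The diet effects differed by -0.53 (SE 0.22), with an unadjusted p of 0.026 and an adjusted p of 0.59. For the interaction as a whole 0 of the 9 genes were called by edgeR or DESeq2 against 0.045% of all genes, and 2, Gstp1 and Mgst1, had an unadjusted p under 0.05 against 7.56%.

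Mgst3 encodes a relative in the same membrane family with transferase and peroxidase activity, at chr1:167371966-167393841 on the minus strand. On Con the WT mice had 6.80, 9.96, 5.32, 6.57 and 6.18 CPM and WT MR mice 26.1, 16.5, 9.34, 18.8 and 20.2. WT_MR_7613 was the 1 WT mouse on MR that lay within the WT Con range. NRF2 KO Con mice ran from 3.38 over 5.21 to 6.79 CPM and NRF2 KO MR mice from 7.57 over 11.8 to 19.2, with no overlap. Mgst3 rose with MR by a log2 fold change of 1.40 in WT (SE 0.26, edgeR adjusted p = 0.0013) and 1.22 in NRF2 KO (SE 0.24, adjusted p = 0.0026), and the effects differed by -0.18 (interval -0.93 to 0.57). The genotypes differed by -0.39 on Con (interval -0.94 to 0.16) and -0.57 on MR (interval -1.07 to -0.07, adjusted p = 0.27).

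Without the library labelled WT_CON_7607, several differences that did not pass the test between genotypes on Con were larger. They were -0.63 for Gstp1, -0.21 for Gstk1, -0.17 for Gsto1, -0.16 for Gstz1 and -0.45 for Mgst1, and none of these was called. The small differences with MR in WT turned to -0.05 for Gstt1 and -0.09 for Gstt3, and the rise of Gsto1 in WT was 0.72 (edgeR, adjusted p = 0.0016). The interactions were -1.65 for Gstp1, -0.40 for Mgst1, -0.26 for Gsto1 and 0.61 for Gstt3, and none of them was called.

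The promoters of the 2 genes that were lower in NRF2 KO on MR are shown because NRF2 binds DNA at antioxidant response elements. Windows of 250 bases before to 50 bases after the annotated start were taken from RefSeq (GRCm38.p6) for 9 of the 10 genes, 12 windows in all, and searched on both strands for the core letters TGACNNNGC (GCNNNGTCA on the other strand), with the match in capitals. Only 1 window held them, that of Mgst1 (chr6:138140277-138140576, plus strand), where the match begins 56 bases before the start. The letters occur in 4071 of all 32851 windows of this length, 12.4%. The window of Gstp1 (chr19:4037863-4038162, minus strand) holds no match to these letters. It does hold TGAGTCAGC, which has G in place of the C of the core, and that form was not searched for.
Mgst1: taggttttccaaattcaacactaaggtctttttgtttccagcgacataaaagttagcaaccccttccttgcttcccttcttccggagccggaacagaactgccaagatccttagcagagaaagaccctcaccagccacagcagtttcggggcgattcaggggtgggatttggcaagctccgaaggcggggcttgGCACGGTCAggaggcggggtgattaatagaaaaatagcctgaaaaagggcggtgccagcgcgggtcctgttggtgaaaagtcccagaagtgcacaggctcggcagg
Gstp1: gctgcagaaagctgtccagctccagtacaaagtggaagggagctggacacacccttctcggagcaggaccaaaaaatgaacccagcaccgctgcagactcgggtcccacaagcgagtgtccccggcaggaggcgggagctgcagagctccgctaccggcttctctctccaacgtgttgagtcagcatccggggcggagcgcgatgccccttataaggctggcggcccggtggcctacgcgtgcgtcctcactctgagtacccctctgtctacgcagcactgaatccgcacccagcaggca

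Other genes of glutathione chemistry were counted from lists. Of 20 genes tested in a list of other transferases and related proteins, 6 were higher and 1 lower with MR in WT, and 6 and 1 in NRF2 KO. The gene called lower was Alox5ap in WT (-0.76) and Clic5 in NRF2 KO (-1.35). Neither is a glutathione transferase, and Clic5 averaged 0.83 CPM on Con and 0.34 on MR in NRF2 KO. No gene of this list was higher and 8 were lower in NRF2 KO on Con, and 6 were lower on MR, against 1.27% and 1.38% of all genes called lower. All of these lower genes belong to the alpha and mu classes. With MR the alpha-class Gsta2 rose by a log2 fold change of 2.89 in WT, to a mean of 126 CPM, and by 2.60 in NRF2 KO, to 16.9 CPM.

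Among 20 genes of glutathione synthesis, recycling and cystine uptake, 8 were higher with MR in WT and 8 in NRF2 KO, with 0 and 1 lower. Gclc, the catalytic subunit of the limiting enzyme, was lower in NRF2 KO on Con (-0.88) and on MR (-1.41). Of 22 genes that export conjugates or turn them into mercapturates, 5 were higher and 2 lower with MR in WT, 1 and 3 in NRF2 KO, and 1 and 4 were lower in NRF2 KO on Con and on MR. The largest change with MR was that of Nat8f7, at -7.87 in WT and -5.92 in NRF2 KO, from means of 1.89 and 2.15 CPM on Con. The exporter Abcc4 rose from 2.58 to 24.4 CPM with MR in WT and stood at 2.67 and 4.10 CPM in NRF2 KO Con and MR. The interaction passed the test for Abcc4 (-2.60, edgeR adjusted p = 0.0020) and for Abcg2 (-0.65, adjusted p = 0.023). Of 9 genes of tyrosine breakdown, the pathway of Gstz1, 2 were lower with MR in NRF2 KO, Got1 (-0.44) and Hgd (-0.26), and none was called in the other comparisons. Of 25 well-known NRF2 targets outside the transferases, 15 were higher with MR in WT, 10 were higher and 1 lower in NRF2 KO, and 10 and 18 were lower in NRF2 KO on Con and on MR. These targets include genes already counted above for glutathione synthesis and for conjugates, such as Gclc and Abcc4, so the counts are not independent.

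**Figure D4:**
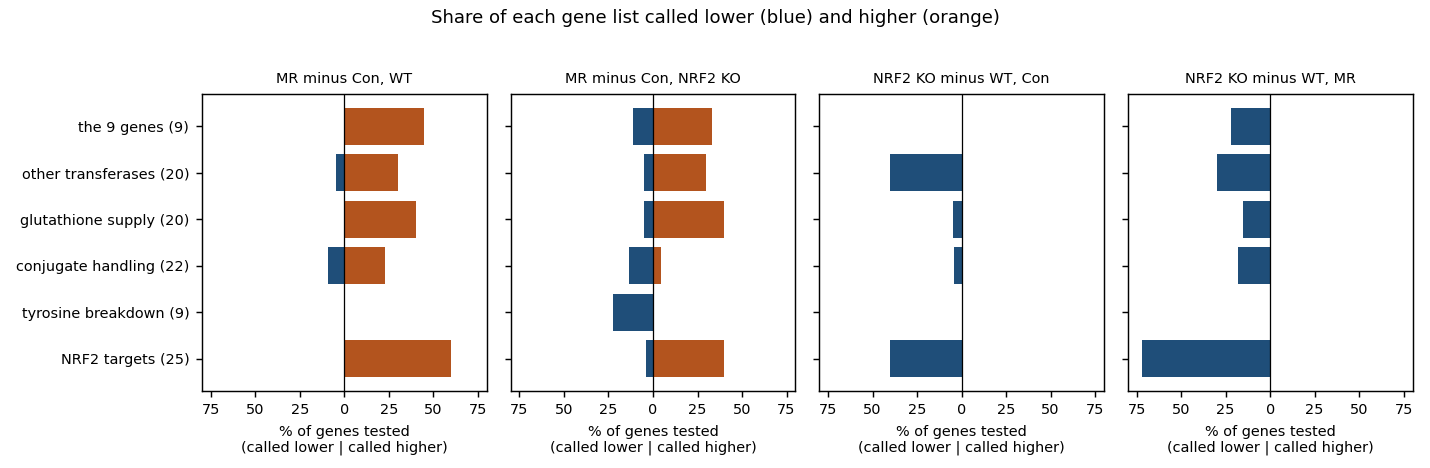
Share of each gene list called lower (blue, to the left) and higher (orange, to the right) by edgeR's quasi-likelihood test, in percent of the genes tested (number in parentheses), for the 4 comparisons. The list labelled other transferases also holds related proteins, and the NRF2 targets share genes with the glutathione supply and conjugate handling lists. The 9 transferases have no call between genotypes on Con. There 8 of the 20 genes of the list labelled other transferases, all of the alpha and mu classes, and 10 of 25 NRF2 targets were lower.

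Markers of some other cells were lower on MR. Of 6 bile duct markers tested, 5 were lower with MR in WT and 1 in NRF2 KO, and their summed level was 56.4 to 78.4 CPM on Con and 25.2 to 33.8 on MR in WT, and 38.9 to 59.2 on Con and 26.2 to 35.1 on MR in NRF2 KO. Among these markers Epcam was at 0 in 1 mouse and Cftr, which did not pass the filter, in 5. Of 11 Kupffer cell markers, 7 were lower with MR in WT and 4 in NRF2 KO, and of 9 stellate cell markers 5 and 4. The 4 transferases called with MR in WT were higher there while these markers were lower, and the part of the other cells in the differences above was not tested. Of 9 endothelial markers 0 were called with MR in WT and 1 was higher in NRF2 KO, of 5 red cell genes 1 was lower in each genotype, and of 4 lymphocyte markers 0 were called. Between genotypes on Con the bile duct marker Spp1 was lower in NRF2 KO (-0.90, edgeR adjusted p = 0.030), and all 6 bile duct markers fitted lower, with a median of -0.50. No bile duct, Kupffer or stellate marker was called between genotypes on MR, where 1.93% of all genes were called. Of 9 hepatocyte markers 1, Apoa1, was lower with MR in WT (-0.64) and in NRF2 KO (-0.32), and on MR it was higher in NRF2 KO (0.50).

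Genes that differ between the sexes also moved with the diet in these male mice. Of 14 genes known as higher in male liver, 4 were lower with MR in WT (median log2 fold change -1.14) and 10 in NRF2 KO (-2.49). Of 15 genes known as higher in female liver, 6 were higher in WT (1.43) and 8 in NRF2 KO (1.81). No gene of either list was called between genotypes, where 2.07% of all genes were called on Con and 1.93% on MR. The median log2 fold change between genotypes was 0.37 on Con and -0.30 on MR for the male list. For the female list it was -0.02 on Con and 0.62 on MR. The part of these genes in the differences of the transferases was not tested.

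Clock genes also moved with the groups. The score, the mean log2 CPM of 10 genes of the DBP and PER arm minus that of 5 genes of the BMAL1 arm, ran in WT from 0.70 to 2.92 on Con and 2.46 to 3.90 on MR, and in NRF2 KO from 3.70 to 4.08 on Con and 3.82 to 4.11 on MR. On Con it did not overlap between genotypes, so genotype and clock phase cannot be told apart there. On MR only WT_MR_7609 (3.90) reached the NRF2 KO range, and in WT only WT_MR_7613 (2.46) of the MR mice lay within the Con range. The fit with the score therefore rests on little overlap in those comparisons as well. With the score in the fit, Gstp1 on MR was -1.78 between genotypes (edgeR, adjusted p = 0.055), its rise with MR in WT was 2.65 (adjusted p = 0.012), and Mgst3 with MR in WT was 1.09 (adjusted p = 0.11).

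The genes whose levels followed those of the 5 called transferases most closely are given as a description over 22 mice that share 4 groups and 1 scaling, out of 13327 other genes. Gstp1 ran closest to Gstp-ps (Pearson r = 0.94, Spearman rho = 0.92) and to Amd1 (0.92 and 0.92), the gene of an S-adenosylmethionine decarboxylase. Gstp1 and Gstp-ps share windows of sequence near their ends, so each row may hold reads of the other gene. Gstt2 ran closest to Pck2 (0.96 and 0.89), a mitochondrial enzyme that makes phosphoenolpyruvate, and to Akr1c19 (0.94 and 0.92). For Gsto1 these were Gch1 (0.91 and 0.93), the first enzyme of tetrahydrobiopterin synthesis, and Akr1c13 (0.91 and 0.88). For Mgst1 they were Chpt1 (0.94 and 0.89), a choline phosphotransferase, and Aldh1a1 (0.93 and 0.90), a retinal dehydrogenase, and for Mgst3 they were Crls1 (0.88 and 0.83), the cardiolipin synthase, and Rpl27 (0.88 and 0.82), a ribosomal protein.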

How the data were processed

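Liver RNA of each mouse gave 1 QuantSeq 3′ library, which the authors mapped and counted with the library maker's pipeline. The deposited table of each mouse's reads holds a raw count per gene, not normalized. A second deposited table holds a normalized signal, each raw count over a DESeq2 size factor that the authors estimated for the library (largest relative deviation 5.1e-15). The submitters' processing notes name GRCm38, mm10, R 3.4.3 and DESeq2 1.18.1. The aligner's treatment of reads with several matches is not given in the sources used here. No row of the table summed to fewer than 72 counts.

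The counts were analysed here in R 4.3.3 with edgeR 4.0.16, using TMM scaling, edgeR's expression filter, which left out 1824 genes, robust quasi-likelihood F-tests with 18 residual degrees of freedom before moderation, and a single model in which every group has its mean. The 5 comparisons were MR against Con in each genotype, NRF2 KO against WT on each diet, and their interaction. Intervals are 95% intervals. Symbols and positions are those of GENCODE M21, matched for 15119 genes. Members and gene lists were chosen with earlier results of these data known. All 10 members were named whatever their values, and the 2 genes most alike in pattern were named for each called member. From each list at most 2 called genes with the largest change were named per comparison, with Alox5ap and Clic5 named besides. Mice WT_CON_7604 and WT_MR_7612, left out by the study, were left out of the fit. No batch is labelled, and no pair of libraries of a group agreed within sampling noise. The alternatives were DESeq2 size factors and its test (1.42.0), library size only, other filters, the deposited normalized signal with limma 3.58.1 on log2(value + 1), the compared groups alone, all 24 mice without and with quality weights, the clock score as a covariate, each mouse left out, and, chosen after seeing the data, Gstp1 summed with Gstp-ps. The SD between mice, which includes counting error, is given as the precision. Counting error is not small beside it for low counts, such as the 12 to 23 per mouse of Gstp-ps in NRF2 KO MR. The same holds where the mice lay as close together as for Gstz1 in WT MR. Python 3.11.15 and matplotlib 3.10.9 drew the figures.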

Additional observations from a re-analysis of the deposited data

Results flagged for a closer look

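In 40 sets of 1 gene and 1 group, a mouse that stood far from the rest of its group was looked for by Dixon's gap ratio at its 95% critical value, and 7 were found where chance would flag about 1 in 20. For Gstp1, WT_MR_7613 stood at 51.4 CPM, with the next mouse at 34.1, and KO_MR_7632 at 13.6 CPM, with the next at 6.86. KO_MR_7632 was also high for Gstk1 (103.7 CPM, the next at 82.8) and for Gstz1 (470.5 CPM, the next at 412). For Gstt3, KO_CON_7620 stood at 51.0 CPM, with the next at 31.6, and for Mgst1, KO_CON_7623 stood at 2226 CPM, with the next at 1744. Without KO_MR_7632 the difference of Gstk1 with MR in NRF2 KO was -0.33 (edgeR, adjusted p = 0.042). For Nfe2l2 the library labelled WT_CON_7607 stood at 324 CPM, with the next WT Con mouse at 125, and it was the lowest WT Con mouse for 6 of the 9 transferases.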

How the results depend on the processing

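The calls of Gstt2 with MR in both genotypes, Gsto1 in WT, Mgst1 and Mgst3 in NRF2 KO, and Mgst1 between genotypes on MR held in all alternatives, and those of Gstp1, Gsto1 in NRF2 KO and Mgst3 in WT did not, with the values given above; the cause was not tested. Between genotypes on MR 1 gene of the set was called with the clock score in the fit, and on Con 0 to 1 with each mouse left out, with 1 without the library labelled WT_CON_7607. Differences of genes that were not called changed sign as follows. With the clock score, Gstt3 and Mgst1 with MR in WT were -0.18 and 0.11, Gstp1, Gstk1, Gsto1 and Mgst1 between genotypes on Con 1.06, 0.070, 0.28 and 0.14, Gstt1 on MR 0.033, and the interaction of Mgst3 0.12. With quality weights, Gstp1 with MR in NRF2 KO was 0.073, Gstz1 on Con 0.0044, Gstt1 on MR 0.0055 and the interaction of Gstz1 -0.070. With all 24 mice, Gstt1 on MR was 0.058 and the interactions of Gstz1 and Mgst3 -0.023 and 0.012. Gstt1 with MR in WT was -0.011 with at least 10 counts in every mouse and -0.00042 with the 2 groups alone, and the interaction of Gstk1 was 0.012 with library size only. With each mouse left out, values ran from -0.055 to 0.075 for Gstt1 and -0.090 to 0.24 for Gstt3 with MR in WT. On Con they ran from -0.66 to 0.17 for Gstp1, -0.17 to 0.087 for Gsto1 and -0.16 to 0.012 for Gstz1. On MR they ran from -0.11 to 0.016 for Gstt1, and for the interaction from -0.074 to 0.095 for Gstz1, -0.11 to 0.061 for Gstk1 and -0.15 to 0.28 for Gstt2. Gstz1 with MR in NRF2 KO was called with quality weights (-0.26, limma, adjusted p = 0.039). Over all genes, 1158 were called for MR in WT with the clock score, 2785 and 2693 for MR in NRF2 KO with library size only and with quality weights, 449, 99 and 7 on Con with DESeq2, the 2 groups alone and the clock score, 484, 600 and 604 on MR with DESeq2, the 2 groups alone and quality weights, and 33 and 3 for the interaction with DESeq2 and the clock score. On Con 181 were called without WT_CON_7603. The 6 calls for the interaction became 3 without WT_MR_7611, WT_MR_7616, KO_CON_7617, KO_CON_7618 or KO_MR_7625, 10 without WT_CON_7608 or WT_MR_7613, 11 without WT_CON_7605 or KO_MR_7632, and 12 without the library labelled WT_CON_7607. No paired analysis was possible because the groups share no replicate numbers. The planned sum of Gstp1 and Gstp2 was not run, since Gstp2 has no row. Depth limits Gstp1 and Mgst3 most, with as few as 32 and 47 counts in a mouse.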

Other observations

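The mice left out of the comparisons had values within or near those of their groups for the genes that rose with MR. WT_CON_7604 had 10.8 CPM of Gstp1, 66.4 of Gstt2, 71.2 of Gsto1 and 10.7 of Mgst3, and WT_MR_7612 had 51.3, 106, 95.4 and 14.3. Both lay below every mouse of their group for Gstt1, at 150.2 and 161 CPM, for Gstt3, at 20.5 and 30.6, and for Gstk1, at 75.4 and 58.9. For Gstz1 they stood at 379 and 421 CPM and for Mgst1 at 1483 and 1331.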
